A study of Homo sapiens with 6 samples.

Results

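The microRNA precursor rows examined here were gene rows named for a microRNA (miRNA) hairpin, at most 200 nt long, with a mean RPKM (reads per kilobase of the row and per 1000000 assigned reads) of at least 5 over the 6 libraries. Of 39739 gene rows, 579 were precursor rows of at most 200 nt, 483 of these held at least 1 read, and 43 met the rule. Members were chosen by this measured mean RPKM, so their levels are given as a description. The libraries came from HGC27, an established line of undifferentiated human gastric cancer cells. HGC27-FN1 3′-UTR cells (3 libraries) carried a stably expressed lentiviral insert of the *FN1* 3′-untranslated region, and HGC27-control cells (3 libraries) carried the control genotype of the labels, whose vector is not given in the sources used here. The methods describe puromycin selection of infected cells and name no single-cell clone, and nothing says whether the libraries of a group came from separate cultures, so the p-values measure the spread between these libraries.

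A miRNA gene is first transcribed as a long primary transcript. The nuclear DROSHA-DGCR8 complex cuts out the hairpin, XPO5 exports it, DICER1 trims it to a short duplex, and an Argonaute protein keeps 1 strand, the mature miRNA, whose seed pairs with target messengers. Many hairpins lie in introns of longer host genes. Mirtrons are hairpins whose ends are made by splicing of the host intron in place of DROSHA. Libraries made for messenger RNA hold fragments far longer than a mature miRNA, so a read in a precursor row comes from a host, primary or overlapping transcript, and none of the values below is a level of a mature miRNA.

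Mature sequences are from the RefSeq table of build GRCh38.p14, which held 41 of the 43 members by symbol and a mature sequence for 38 of them. All are printed 5′ to 3′ in lower case with the seed, bases 2 to 8, in capitals. The first set belongs to the 2 rows that passed the test between the groups and to the 3 rows with the highest levels.
miR-199a-5p: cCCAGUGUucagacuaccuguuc
miR-199a-3p: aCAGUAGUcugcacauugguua
miR-4444: cUCGAGUUggaagaggcg
miR-1282: uCGUUUGCcuuuuucugcuu
miR-3661: uGACCUGGgacucggacagcug
miR-762: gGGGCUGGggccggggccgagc

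The next set is shown for its last letters. These are 3p strands of hairpins that end where a host exon begins, and each ends in cag, the usual close of an intron.
miR-6515-3p: uCUCUUCAucuaccccccag
miR-6728-3p: uCUCUGCUcugcucuccccag
miR-6835-3p: aAAAGCACuuuucugucucccag
miR-7111-3p: aUCCUCUCuucccuccucccag
miR-6819-3p: aAGCCUCUguccccaccccag

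The 55 distinct mature miRNAs of the members carried 54 seeds. The only seed found in more than 1 of them was that of miR-4253 and miR-6862-5p.
miR-4253: aGGGCAUGuccagggggu
miR-6862-5p: cGGGCAUGcugggagagacuuu

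The libraries held 16357085 to 37037532 assigned reads, and the members took 0.0364% to 0.0399% of them. *FN1* itself, read over the whole gene, was at 0.777, 0.745 and 0.819 RPKM in HGC27-FN1 3′-UTR and at 0.543, 0.474 and 0.532 in HGC27-control libraries (log2 fold change 0.52 ± 0.11 SE, adjusted p = 0.0292, limma). The epithelial markers *KRT8*, *KRT18*, *KRT19*, *EPCAM* and *CDH1* all rose (5 of 5, log2 fold changes 1.83 to 4.11), with *KRT18*, *KRT19*, *EPCAM* and *CDH1* at no more than 0.257 RPKM in any control library. The mesenchymal marker *VIM* was at 285.7 to 324.2 RPKM in all libraries, the fibroblast marker *COL1A1* rose by 0.55, and *PDGFRB* was at 0.132 to 0.206. The leukocyte marker *PTPRC* did not exceed 0.016 RPKM and the endothelial marker *PECAM1* was at 0. The part of these marker differences in the results below was not tested.

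Levels were very unequal. *MIR1282*, on chromosome 15, gave 66.6% of the 60908 reads of all members. Its level was 2622, 2494 and 2646 RPKM in HGC27-FN1 3′-UTR libraries and 2559, 2367 and 2439 in HGC27-control libraries. *MIR3661* followed with 463.0, 429.9 and 487.3 against 424.0, 446.9 and 483.2 RPKM. *MIR762* came next with 290.2, 304.4 and 290.9 against 330.7, 321.4 and 303.2 RPKM. For each of the top 4 rows the lowest library lay above the highest library of the next row, so their order held in all libraries. *MIR4444-2*, the fourth, had a mean of 100.2 RPKM.

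*MIR6515* (mean 63.3), *MIR621* (62.6) and *MIR6728* (57.2) formed a second tier whose libraries overlapped. *MIR6728* and *MIR1244-2* (37.2) did not overlap, and *MIR1244-2*, *MIR6835* (34.8) and *MIR6723* (30.7) again did. The other 33 members had overlapping neighbours throughout, and 20 of the 43 had a mean under 10 RPKM. The rows just inside the threshold were *MIR4754* (5.25), *MIR4690* (5.44) and *MIR6859-4* (5.92), and those just outside were *MIR6781* (4.78), *MIR3185* (4.77) and *MIR135A2* (4.76).

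**Figure D1:**
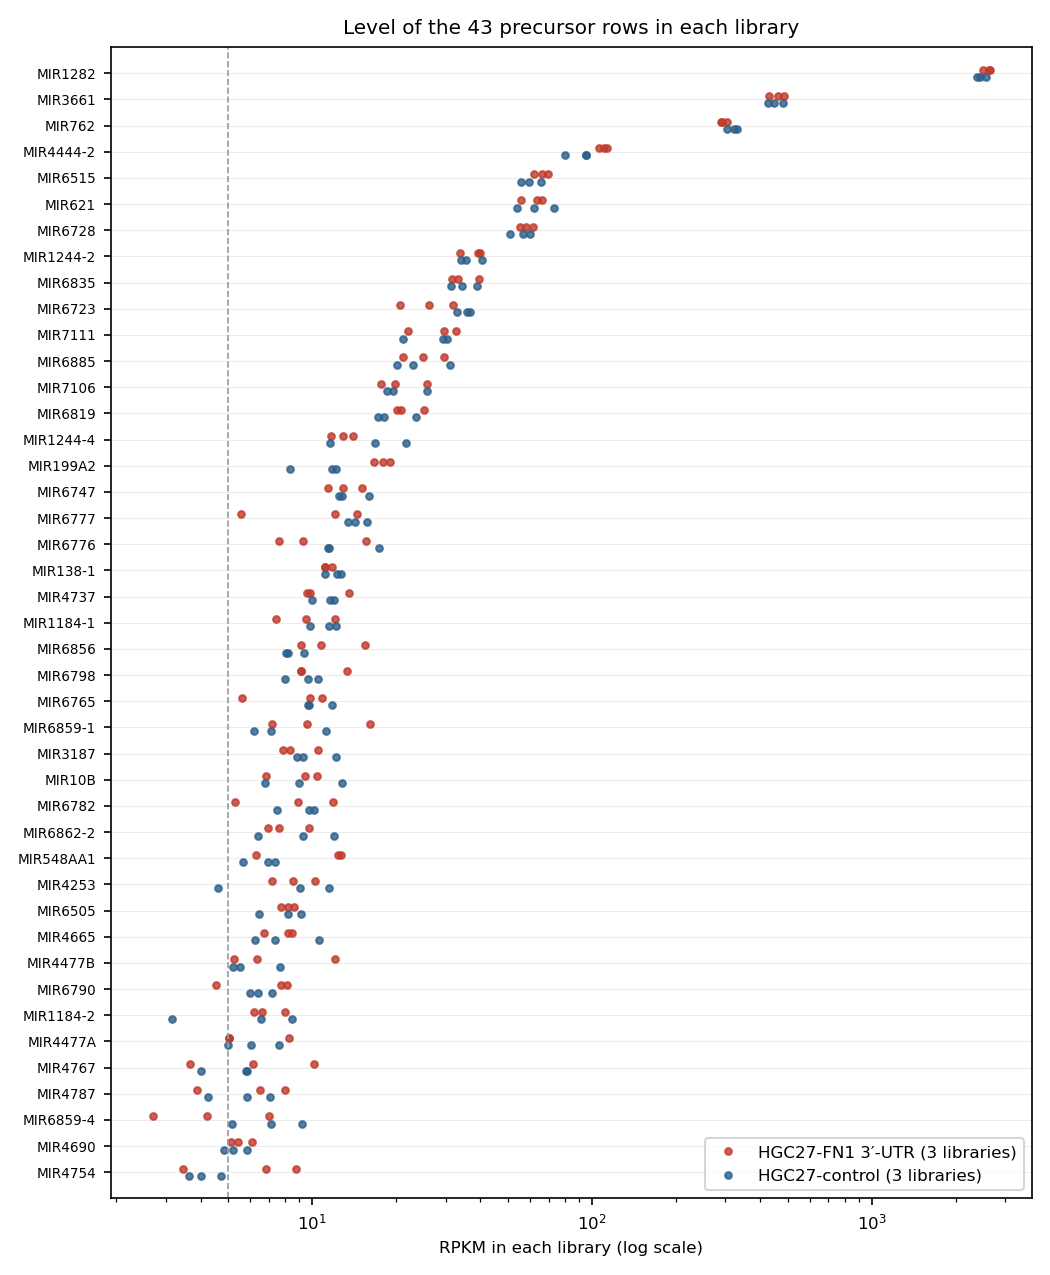
RPKM of the 43 precursor rows in each library on a log axis, ordered by mean, with HGC27-FN1 3′-UTR libraries in red, HGC27-control libraries in blue and a dashed line at the mean of 5 that the rule asks for. *MIR1282* stood near 2521 RPKM, *MIR3661* near 456 and *MIR762* near 307, while 20 rows had a mean under 10.

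Because the rows were only 57 to 110 nt long, high RPKM could rest on few reads. A member held 52 to 40552 reads over the 6 libraries, with a median of 136. In 27 of the 43, every library held at least 10 reads. Intervals were mostly narrower in rows with more reads. The 95% interval of the log2 fold change had a half-width of 0.10 at best and 0.88 at worst, with a median of 0.26 above 200 reads and 0.74 under 100 reads. *MIR4690*, with the fewest reads of all (52), had a half-width of 0.22. Limma took the spread from the RPKM values, shared across rows of like level, and not from the reads of a row. Intervals of rows with few reads can therefore be narrower than counting noise allows.

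Positions were read from the deposited annotation (GRCh38). No member overlapped an exon of another row on its own strand. An exon on the opposite strand was overlapped by 11 of 43 members (25.6%) and by 61 of the 536 other precursor rows (11.4%). All 3 rows with the highest levels were among the 11. *MIR1282* (chr15:43793659-43793759, minus strand) lay over coding exon sequence of *SERF2*, a small basic protein. *MIR3661* (chr5:134225757-134225852, plus strand) lay over coding exon sequence of *PPP2CA*, the catalytic subunit of protein phosphatase 2A. *MIR762* (chr16:30893903-30893985, plus strand) lay over coding and untranslated exon sequence of *BCL7C*, a subunit of BAF chromatin remodelling complexes, and within an intron of the non-coding *MIR762HG*. GENCODE release 29 placed all 43 members at the same positions.

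On the scale of RPKM, *MIR1282* stood at 2611% of the mean level of *SERF2* (96.6), *MIR762* at 1505% of that of *BCL7C* (20.4), and *MIR3661* at 1271% of that of *PPP2CA* (35.9). RPKM divides by length, and these partner rows were 7347, 4398 and 5661 nt long. In reads the precursor rows were the lower, with 40552 against 112779, 4083 against 14389 and 7050 against 32430. The percentages are therefore no ratio of transcripts. *MIR3661* was at the level of CTD-2410N18.5, a 483-nt row on the opposite strand over the same exon (455.7 and 455.6 RPKM). The libraries were made with a stranded kit, but the strand setting used in counting is not given in the sources used here, so reads of these rows and of their opposite partners cannot be told apart with certainty.

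One pair of rows bore on that setting. *MIR548AA1* and hsa-mir-548d-1 cover the same 97 bases on opposite strands. *MIR548AA1* held 10, 30 and 35 reads in HGC27-FN1 3′-UTR and 16, 17 and 25 in HGC27-control libraries, and hsa-mir-548d-1 held 8, 24 and 27 and 14, 17 and 18. The rows had different reads in 5 of 6 libraries. Counting without regard to strand would have given both rows the same reads. The pair does not show whether the setting matched the orientation of the kit, so the doubt about opposite partners remains.

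A same-strand host was found for 27 of 43 members (62.8%), always with the precursor in an intron. The same was found for 394 of the 536 other precursor rows (73.5%). Among these 27, the 3′ end of the hairpin adjoined the next host exon directly, with 0 bases between, in 18 (66.7%). The same held for 130 of 394 other intronic precursor rows (33.0%). The 5′ end adjoined the previous exon in only 2 of 27, *MIR6790* in *GTF2F1* and *MIR6765* in *JAG2*. *MIR6765* adjoined exons at both ends and thus spanned a whole 87-nt intron. The hairpins of the 18 measured 57 to 89 nt, and all 16 of them with a hairpin in the sequence table ended in AG. So did 0 of 8 members in introns whose 3′ end adjoined no exon. Among other precursor rows that adjoined an exon at the 3′ end, 120 of 121 ended in AG. Introns usually close in AG, so this ending follows from the position and is no trait of the members. Of the 14 3p mature strands of the 18, 10 ended in CAG, as in the set printed above. The share was 0 of 8 for the remaining members and 17.3% of all 822 3p strands in the table. These CAG ends follow from the same position.

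**Figure D2:**
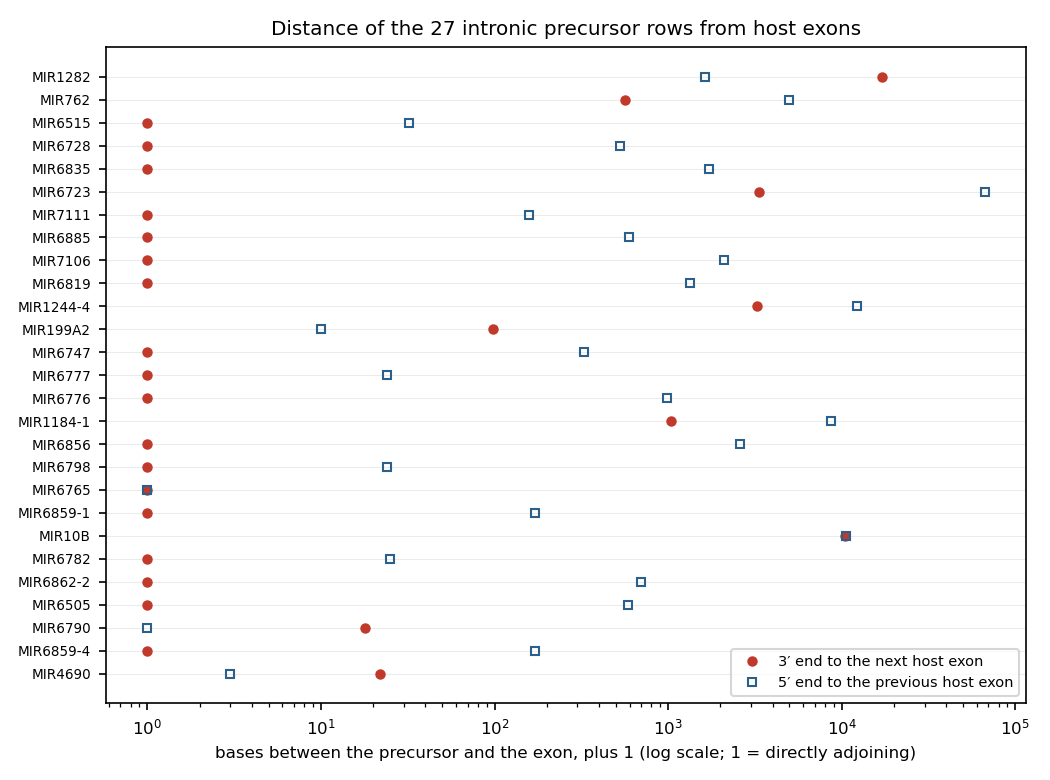
Bases between each of the 27 intronic precursor rows and the nearest host exon, plus 1, on a log axis, with the 3′ side as red circles and the 5′ side as open blue squares. The 3′ end adjoined an exon directly in 18 rows, and the 5′ end in 2.

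The hosts of these adjoining hairpins included some abundant transcripts. *MIR6515* (chr19:12940484-12940540, plus strand) lies in *CALR*, a calcium-binding chaperone of the endoplasmic reticulum at 700.1 RPKM. *MIR6728* (chr1:8866502-8866590, minus strand) lies in *ENO1*, the glycolytic enzyme enolase, at 672.4 RPKM. *MIR6835* (chr6:34240673-34240736, plus strand) lies in *HMGA1*, an architectural chromatin protein, at 296.7 RPKM. *MIR6747* (chr11:62567011-62567071, minus strand) lies in *EEF1G*, a subunit of translation elongation factor 1, at 679.2 RPKM. These precursor rows stood at 9.04%, 8.51%, 11.7% and 1.98% of their hosts' RPKM.

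Over all 27 members with a host, the precursor row stood at 1.98% to 121374% of the host RPKM, with a median of 46.0%, and 10 stood above it. The hosts were far longer than the precursor rows, so percentages of host RPKM are no ratio of transcripts either. The highest ratio belonged to *MIR1244-4* in *BCL2L14*, a host at 0.012 RPKM that was too low to be tested. For *MIR6885* the rule took the shortest host, CTB-180A7.6 (0.115 RPKM), although the hairpin also lies in *GTF2F1* (153.7 RPKM), a subunit of the general transcription factor TFIIF.

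The comparison of HGC27-FN1 3′-UTR with HGC27-control cells asked which precursor rows changed with the overexpressed 3′-UTR. Of the 43 members, all of which were tested, 2 rose and 0 fell at an adjusted p under 0.05 in limma's test on log2(RPKM + 0.1), beside 5.62% of all 23299 rows tested that rose and 7.36% that fell (13% in both directions). At an unadjusted P under 0.05 there were 4 members, 2 of them higher and 2 lower, beside 29.6% of all rows. By the study's criteria for differential genes, an absolute log2 fold change above 1 with P under 0.05, no member was up- or downregulated, beside 1.65% and 0.815% of all rows. Limma's voom on recovered reads also called 2 rows higher and 0 lower. The count of higher rows was 1 with no filter on low values, 0 with no trend in the prior variance, 0 with a replicate block and 0 to 1 when any 1 library was left out. The median log2 fold change of the members was 0.03, beside -0.04 for all rows, and single members ranged from -0.68 to 0.74. The groups did not overlap in 3 members, 2 with HGC27-FN1 3′-UTR above and 1 below, beside 36% of all rows. These shares of called and non-overlapping members lay below those of all rows, whose intervals had a median half-width of 0.25 against 0.45 for the members.

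**Figure D3:**
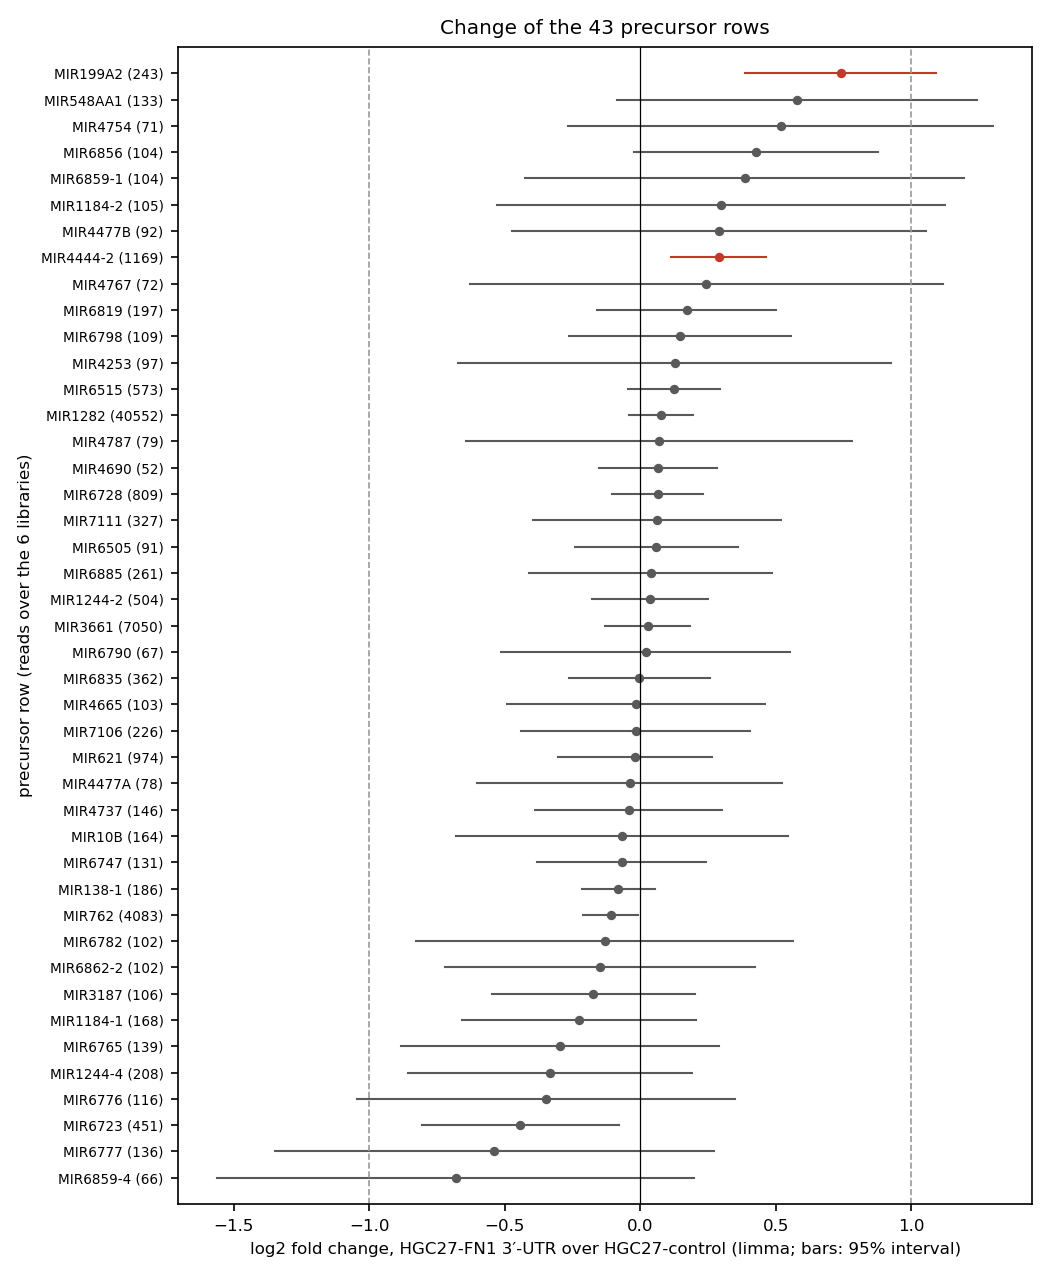
Log2 fold change of the 43 precursor rows, HGC27-FN1 3′-UTR over HGC27-control, with 95% intervals from limma and the reads over 6 libraries in parentheses. The rows in red, *MIR199A2* (0.74) and *MIR4444-2* (0.29), passed an adjusted p of 0.05, and the dashed lines mark -1 and 1.

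*MIR199A2* encodes 1 of the hairpins of miR-199a, a miRNA known from mesenchymal cells. Its level was 16.7, 17.9 and 18.99 RPKM in HGC27-FN1 3′-UTR libraries (30, 48 and 61 reads) and 12.2, 11.8 and 8.35 in HGC27-control libraries (30, 40 and 34 reads). All 3 HGC27-FN1 3′-UTR libraries lay above all controls. The mean was 17.8 ± 1.16 RPKM against 10.8 ± 2.12 (SD, n = 3 per group). The log2 fold change was 0.74 ± 0.15 SE (95% interval 0.39 to 1.09, adjusted p = 0.0251, limma), and on recovered reads the adjusted p was 0.00578 (voom). Without HGC27-FN1 3′-UTR replicate 1, 2 or 3 or HGC27-control replicate 2 the row no longer passed, with log2 fold changes of 0.79, 0.74, 0.69 and 0.81.

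The host of *MIR199A2* (chr1:172144535-172144644, minus strand) was *DNM3OS*, a long non-coding RNA opposite to *DNM3* that is known as the primary transcript of miR-199a and miR-214. The hairpin lies 97 bases before one exon of the deposited annotation and 9 bases after another, and in an exon of *DNM3OS* in GENCODE 29. *DNM3OS* was at 0.968, 1.21 and 1.09 RPKM in HGC27-FN1 3′-UTR and at 0.647, 0.648 and 0.558 in HGC27-control libraries. It rose with its groups apart, by 0.73 ± 0.12 SE on the log2 scale (adjusted p = 0.0146, limma). With a replicate block the adjusted p of *DNM3OS* was 0.0546 (limma). *DNM3*, on the other strand, did not exceed 0.027 RPKM. *MIR3120*, a hairpin of the same locus below the level of the rule, was at 1.52 to 3.38 RPKM with a log2 fold change of -0.10 ± 0.27 SE (32 reads), and its groups overlapped. Its strand is not given here, so it is not read as a product of *DNM3OS*. The other hairpin of the miRNA, *MIR199A1*, held 12 reads.

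*MIR4444-2* (chr3:75214476-75214549, plus strand) lies in no annotated gene. Its level was 113.2, 110.7 and 106.4 RPKM in HGC27-FN1 3′-UTR libraries and 95.6, 80.2 and 95.2 in HGC27-control libraries, so the groups did not overlap. The log2 fold change was 0.29 ± 0.07 SE (95% interval 0.11 to 0.46, adjusted p = 0.0497, limma), close to the threshold, and 0.0373 on recovered reads (voom). The call was lost without any 1 of the 6 libraries, with log2 fold changes of 0.21 to 0.33. HNRNPA3P6, a processed pseudogene of the RNA-binding protein gene *HNRNPA3* that begins 82 bases downstream on the same strand, was at 36.2, 33.9 and 31.4 against 29.6, 29.2 and 30.3 RPKM (log2 fold change 0.19 ± 0.05 SE, adjusted p = 0.0749, limma). The hairpin of *MIR4444-2* is identical to that of *MIR4444-1*, which is not analysed here, so its reads could be shared between copies.

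**Figure D4:**
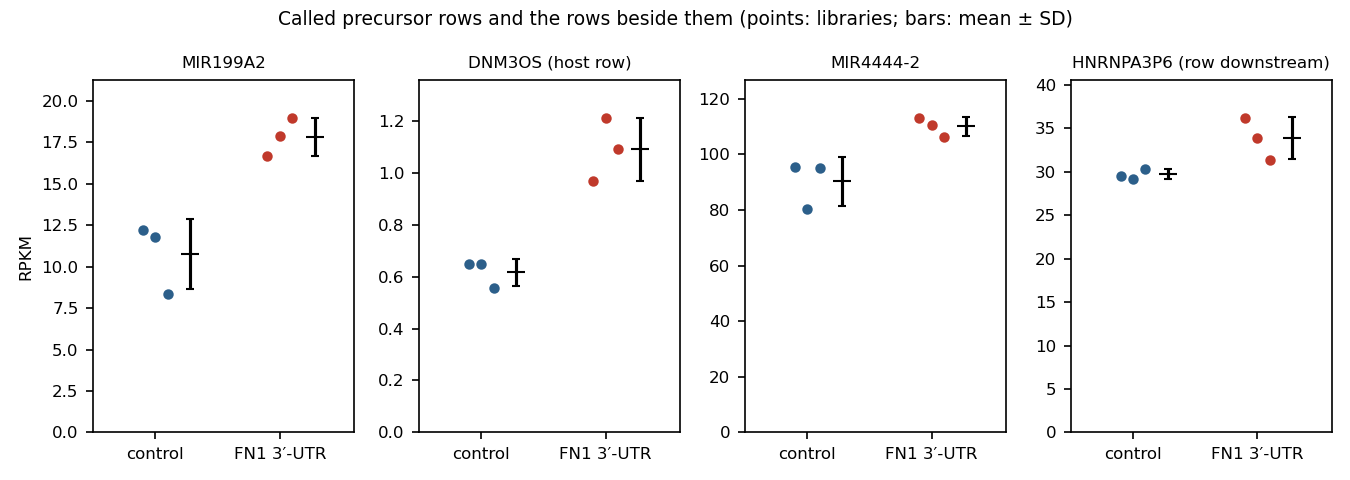
RPKM of *MIR199A2*, its host *DNM3OS*, *MIR4444-2* and the downstream row HNRNPA3P6 in each library (points) with mean ± SD (bars, n = 3), on axes that start at 0. In all 4 panels the 3 HGC27-FN1 3′-UTR libraries lay above the 3 HGC27-control libraries.

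The 2 members with a lower level at an unadjusted P under 0.05 did not pass after adjustment. *MIR6723* was at 20.6, 26.2 and 31.9 RPKM in HGC27-FN1 3′-UTR and at 35.7, 36.8 and 33.1 in HGC27-control libraries, with no overlap (log2 fold change -0.44 ± 0.15 SE, adjusted p = 0.108, limma). It lies opposite to MTCO1P12, a nuclear pseudogene of the mitochondrial cytochrome oxidase gene, at 238.1 to 351.3 RPKM with a log2 fold change of -0.25 ± 0.11 SE (adjusted p = 0.177, limma). On recovered reads the adjusted p of MTCO1P12 was 0.00656 (voom), and with a replicate block it was 0.0408 (limma), while that of *MIR6723* was 0.101 (voom) and 0.153 (block, limma). Reads from such near-identical copies are uncertain. *MIR762* had a log2 fold change of -0.11 ± 0.04 SE (adjusted p = 0.144, limma), with overlapping groups, beside -0.07 for *BCL7C* and -0.06 for *MIR762HG*.

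Intervals were narrow for the 2 most abundant rows. *MIR1282* differed by a log2 fold change of 0.08 (95% interval -0.04 to 0.20) and *SERF2* by 0.11. *MIR3661* differed by 0.03 (-0.13 to 0.19) and *PPP2CA* by 0.07. The intervals of 33 of the 43 members lay wholly between -1 and 1, and those of the other 10 reached past one of these limits. In rows with few reads these intervals can be too narrow, as stated above. *MIR6859-4*, with 3, 7 and 14 against 14, 15 and 13 reads, had the widest (-1.56 to 0.20).

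The 18 hairpins that adjoined a host exon had log2 fold changes of -0.68 to 0.43 with a median of 0.02, and in all of them the groups overlapped. None passed the adjusted threshold in limma's test, the lowest adjusted p being 0.187. Of the 26 hosts tested, 4 rose (*CALR*, *ENO1*, *DDX54*, an RNA helicase, and *DNM3OS*) and 3 fell (*SREBF1*, a transcription factor of lipid synthesis, *EIF3C*, a subunit of translation initiation factor 3, and the pseudogene WASH7P), beside 5.62% and 7.36% of all rows. With a replicate block none of these hosts passed (adjusted p from 0.0546 for *DNM3OS* to 0.117 for *ENO1*, limma), while all of them passed in voom. *CALR* was higher by 0.20 ± 0.03 SE (adjusted p = 0.0133, limma) beside 0.13 ± 0.07 SE for *MIR6515*. *ENO1* was higher by 0.16 ± 0.04 SE (adjusted p = 0.0446, limma) beside 0.06 ± 0.07 SE for *MIR6728*. In 24 of 26 pairs the host's log2 fold change lay within the 95% interval of its precursor row, the exceptions being *MIR1282* and *MIR6723*. These intervals had a median half-width of 0.43 for the members with a host, wide enough to hold most small host changes. The count therefore cannot show that precursor rows follow their hosts. Precursor and host changed in the same direction in 14 of the 26 pairs.

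**Figure D5:**
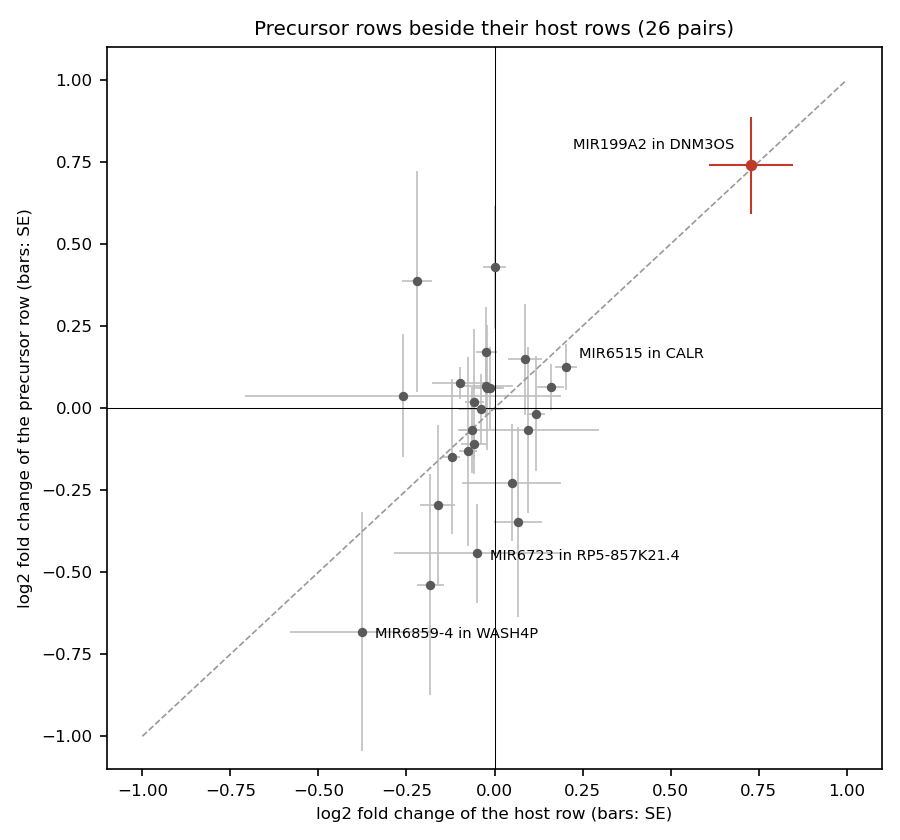
Log2 fold change of each precursor row against that of its host row for the 26 pairs in which both were tested, with SE bars and a dashed line of equal change. *MIR199A2* in *DNM3OS* lay at the upper right (0.74 and 0.73), and all other hosts lay between -0.37 and 0.20.

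Of the members outside any host, 10 also overlapped no exon on the other strand. *MIR621* lay 655 bases downstream of *SLC25A15*, a mitochondrial ornithine carrier, at 54.1 to 73.1 RPKM beside 13.0 to 16.2. *MIR1244-2* lay 464 bases downstream of PTMAP2, a prothymosin pseudogene, at 33.8 to 40.6 RPKM beside 84.9 to 95.6. *MIR4787* lay 78 bases upstream of *DOCK3*, a guanine nucleotide exchange factor. *DOCK3* fell by 0.34 on the log2 scale (adjusted p = 0.0475, limma), and *MIR4787*, on 79 reads, differed by 0.07 (95% interval -0.64 to 0.78).

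Several members are near-identical copies, and how multiply mapped reads were counted is not given in the sources used here. Identical hairpins elsewhere in the sequence table were found for 8 of the 36 members with a hairpin there. *MIR1244-2* and *MIR1244-4* share a hairpin but stood at 37.2 and 14.8 RPKM, and *MIR1184-1* and *MIR1184-2* at 10.4 and 6.51. *MIR6859-1* and *MIR6859-4* stood at 9.58 and 5.92, with log2 fold changes of 0.39 ± 0.34 SE and -0.68 ± 0.36 SE. The 81-nt hairpin of *MIR4477A* was identical to the reverse complement of that of *MIR4477B*. Values of these copies are uncertain.

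Of the 16 miRNAs in the network the study built from its pull-down with the *FN1* 3′-UTR, 7 had a precursor row in these tables (that of miR-296 was longer than 200 nt) and only miR-6747 had one among the members. *MIR6747* was at 15.03, 11.4 and 12.9 RPKM in HGC27-FN1 3′-UTR and at 12.5, 15.96 and 12.8 in HGC27-control libraries. The groups overlapped and the log2 fold change was -0.07 ± 0.13 SE (95% interval -0.38 to 0.24, adjusted p = 0.776, limma), beside -0.06 for *EEF1G*. No other miRNA of the network reached the level of the rule, and none of the 6 rows tested passed the adjusted threshold in limma's test.

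The let-7 family, whose members share a seed and are known to repress oncofetal genes, lay wholly below the rule. Its 2 strongest precursor rows were those of let-7i and let-7f, and the 5p strands are printed to show the common seed.
let-7i-5p: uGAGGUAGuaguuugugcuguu
let-7f-5p: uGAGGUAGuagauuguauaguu
*MIRLET7I* was at 4.37, 4.87 and 4.08 RPKM in HGC27-FN1 3′-UTR and at 1.07, 3.09 and 2.57 in HGC27-control libraries, without overlap and on 44 reads in all. Its log2 fold change of 1.07 ± 0.36 SE had an unadjusted P of 0.0234 and an adjusted p of 0.105 (limma), so it met the study's criteria for differential genes and missed the adjusted threshold. On recovered reads (voom) its log2 fold change was 0.96, under the limit of 1, and the ratio of the group means was 1.98. The row lies within the host RP11-631N16.2 and over an exon of *LINC01465* on the opposite strand. Its reads cannot be told apart from those of these rows with certainty. *MIRLET7F1* was at 2.35 to 4.92 against 1.55 to 4.63 RPKM with overlapping groups. *MIRLET7D* held 23 reads, and each of the other 5 let-7 precursor rows held no more than 3.

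Of the 22 genes of miRNA processing and silencing, 21 were tested, 2 rose and 1 fell at an adjusted p under 0.05, and none met the criteria for differential genes. The share of 3 in 21 was near the 13% called in both directions among all rows. *LIN28B*, an RNA-binding protein known to block let-7 maturation, was higher by 0.32 ± 0.05 SE (adjusted p = 0.0169, limma). *RAN*, the GTPase that drives nuclear export with XPO5, was higher by 0.15 ± 0.03 SE (adjusted p = 0.0242, limma). *AGO4*, an Argonaute protein, fell by 0.47 on the log2 scale (SE 0.05, adjusted p = 0.00549, limma). *DROSHA*, *DGCR8*, *XPO5* and *DICER1* had log2 fold changes of -0.05 to 0.07, none past the threshold. The median of the list was 0.02, beside -0.04 for all rows.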

How the data were processed

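The authors prepared stranded messenger RNA libraries and deposited RPKM per gene row, 1 table per library. The submitters' processing notes name Trimmomatic 0.36, STAR 2.5.3a, featureCounts of Subread 1.5.1 and GRCh38. The strand, overlap and multiple-mapping settings and the annotation release are not given in the sources used here. Short rows make RPKM steep in single reads.

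Groups came from the sample titles. Rows with an RPKM of at least 0.1 in 3 libraries were fitted as log2(RPKM + 0.1) with limma 3.58.1 in R 4.3.3 (group term, trended empirical Bayes, two-sided) and adjusted by Benjamini-Hochberg over 23299 rows. Fold changes are on this scale, whose pseudocount weighs most on low values. Whole reads were recovered from RPKM (100% of values within 0.02 of a whole number) and gave depths of 16357085 to 37037532. Members and lists were chosen with earlier results of these data known. Named were members that passed, the 10 highest, those of pulled-down miRNAs, those beside the threshold, and their hosts. Other members and rows below the rule were named after their values were seen. Hosts were longer rows spanning a precursor on its strand, the shortest where several did. The exclusion of 38 multi-copy rows spanning over 3000000 bases as hosts was added after seeing the files. The test was checked on simulated data with a fixed spread and with changes larger than those of the members. The changed rows held more reads than some members did, so the check does not show which changes of members the test would find. Alternatives were other pseudocounts, filters, scaling, voom, a replicate block, no variance trend, each library left out and other membership levels. The pulled-down miRNA sequencing was not analysed here.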

Additional observations from a re-analysis of the deposited data

How the results depend on the processing

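The count of 2 higher and 0 lower members, and the count of 0 by the study's criteria, were kept with a pseudocount of 0.5 or 1, a mean RPKM of at least 1, at least 10 reads in every library, median-ratio scaling, voom and membership at a mean of at least 10. The count of higher members was 1 with no filter on low values, 0 with no trend in the prior variance and 0 with a replicate block. Over all rows tested, deviations of same-numbered libraries from their group means had correlations of 0.00, 0.02 and 0.01. Rows with few reads add counting noise to these values, so they cannot show that the numbers do not pair the libraries. Depth rose from replicate 1 to replicate 3 in both groups, and the sources used here do not say which libraries were prepared together. Leaving out each library in turn gave 0 to 1 higher and 0 to 1 lower members and 0 to 1 downregulated by the criteria, with 0 upregulated. Without HGC27-FN1 3′-UTR replicate 3, *MIR4754* was higher, *MIR6723* lower (log2 fold change -0.60, adjusted p = 0.0414, limma) and *MIR6859-4* downregulated. Without HGC27-FN1 3′-UTR replicate 1 the call was *MIR548AA1*. Over 15 alternatives *MIR199A2* had log2 fold changes of 0.57 to 0.84 and passed in 9, with adjusted p from 0.00578 to 0.0744 (limma), and *MIR4444-2* had 0.21 to 0.33 and passed in 6, from 0.0252 to 0.136 (limma). Membership at a mean of at least 1 RPKM (144 rows) gave 5 higher and 1 lower, beside 5.62% and 7.36% of all rows. By the study's criteria it gave 6 upregulated and 2 downregulated, beside 1.65% and 0.815% of all rows. By adjusted p the rows this added were *MIR6775*, *MIR331* and *MIR3074* higher and *MIR6752* lower, each with at most 46 reads in all. The 6 upregulated were *MIR6775*, *MIR221*, *MIRLET7I*, *MIR4742*, *MIR125A* and *MIR4749*, each with at most 44 reads. The 2 downregulated were *MIR6752* and *MIR3665*. The median log2 fold change moved in no alternative by more than the spread of library medians (SD 0.07). Few reads per row limited the precision, and the causes of lost calls were not tested.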
